A study of Mus musculus with 77 samples.

Results

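Whole lungs of neonatal DBA mice raised in high oxygen were set against lungs of DBA mice raised in room air, gene by gene, in 8 RNA-seq libraries of the 77 samples in the series. The members are the 4 libraries labelled DBA and hyperoxia and the 4 labelled DBA and room air, and every gene in their table was examined. All 8 came from mice of genotype DBA/2J sampled at 14 days, and no knockout, transgene or drug is labelled for any of them. The hyperoxia pups had breathed 75% oxygen from within 24 h of birth to postnatal day 14, and the room-air pups had breathed ordinary air for the same time. Lungs were perfused to clear blood before freezing, and polyadenylated RNA was enriched. Hemoglobin transcripts remained in all 8 libraries, at 4143 to 37262 TPM. A second mouse strain, C57BL/6J (called B6 here), is held in the same table with 3 hyperoxia and 4 room-air lungs of the same exposures and age, and is used to show where the DBA response differed. Each library carries 1 of 2 date codes in its column name (called code A and code B here), with 2 hyperoxia and 2 room-air libraries under each code, and no label says what the code dates. All DBA columns are marked male. The labels do not say whether replicates come from different mice, so each p-value reflects the spread among these libraries, which may be technical.

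Neonatal hyperoxia in mice is a model of bronchopulmonary dysplasia, the lung disease of preterm infants in which alveoli stop subdividing. In mice alveoli form mainly after birth, by septa that grow out from the walls of larger air spaces and carry elastin, myofibroblasts and capillaries with them. Oxygen in excess yields reactive species that damage DNA and thiols: the transcription factor p53 responds to DNA damage by arresting or killing cells, and NRF2 responds to oxidised thiols by raising glutathione and thioredoxin enzymes.

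Expression was given as TPM, in which each value is a share of its library after correction for transcript length. Differences are on the log2(TPM + 1) scale, fitted with limma with the date code as a term, and a gene is called where the p-value adjusted over all genes tested is below 0.05. Wherever 4 values follow each other, hyperoxia libraries stand in the order 1 and 2 of code A and then 1 and 2 of code B, and room-air libraries in the order 2 and 3 of code A and then 1 and 2 of code B. Estimated reads per library were 15950000 to 38760000 in hyperoxia and 12550000 to 25360000 in room air. Lung identity was plain in all 8 libraries: Scgb1a1, the main secretory protein of airway club cells, and Sftpc, the surfactant protein of alveolar type 2 cells, were the 2 most abundant transcripts. The first principal component held 47.6% of the variance and separated hyperoxia from room air, with room-air library 3 of code A nearest to the hyperoxia side.

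Of 24940 transcripts listed, 14617 passed the filter of 1 TPM in 4 libraries and 4256 (29.1%) were called, 2527 (17.3%) higher and 1729 (11.8%) lower in hyperoxia. The smallest adjusted p was 0.000828, and 413 called genes changed by at least 1 on the log2 scale (253 higher, 160 lower). The date code itself had 0 calls in limma, with 1391 genes at an unadjusted p under 0.05. Groups did not overlap for 4312 genes (29.5%), with hyperoxia above room air for 2520 (17.2%) and below for 1792 (12.3%). Of the calls, 59.4% were higher in hyperoxia; with Scgb1a1 removed and each library rescaled, the share was 49.4% (2008 higher, 2056 lower), and with quantile normalization 51.7%. The number of calls fell to 2130 without hyperoxia library 1 of code B, to 2628 without room-air library 2 of code A and to 2713 without hyperoxia library 2 of code B. In bulk lung, fewer cells of a type and less RNA per cell cannot be told apart, and this holds for every result that follows.

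**Figure D1:**
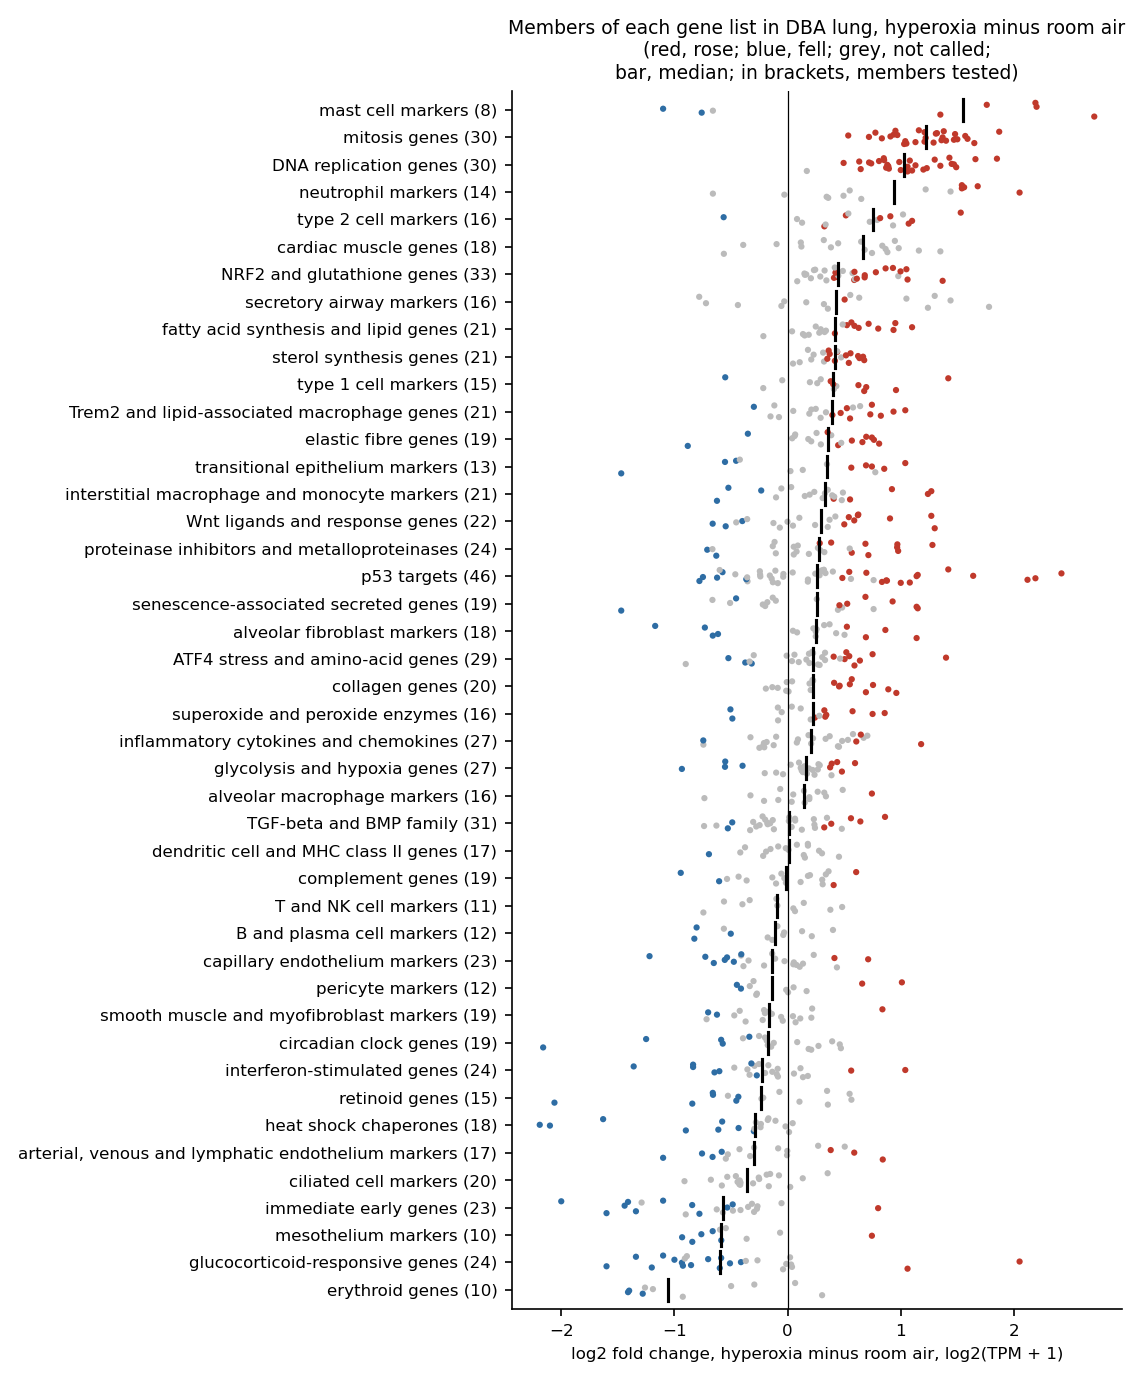
Log2 fold change of every tested member of the gene lists with 5 or more tested members in DBA lung (x axis, hyperoxia minus room air on the log2(TPM + 1) scale), 1 list per line ordered by its median (black bar). Red points rose, blue points fell and grey points were not called; the mitosis and DNA replication lists lie wholly above 0 (medians 1.22 and 1.03), and the glucocorticoid list has a median of -0.593.

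Cell-cycle genes were higher in hyperoxia almost without exception. All 30 mitosis genes tested rose, with a median log2 difference of 1.22, against a median of 0.051 over all genes tested. Of 30 DNA replication genes, 29 rose with a median of 1.03, and only Ccne2, a cyclin that starts S phase, was not called (0.17, adjusted p = 0.39). With any 1 library left out, 28 to 30 of the mitosis genes and 29 of the replication genes rose.

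Top2a, the topoisomerase that untangles chromosomes before division, measured 27.1, 32.7, 29.6 and 22.2 TPM in hyperoxia and 7.44, 9.96, 6.03 and 4.76 TPM in room air. Every hyperoxia library was more than double any room-air library. The difference was 1.87 ± 0.15 (SE) on the log2 scale, adjusted p = 0.000828. Aurkb, a kinase of the chromosomal passenger complex, measured 11.5, 14.1, 11.7 and 7.88 TPM in hyperoxia and 4.07, 2.60, 2.81 and 2.12 TPM in room air. Its groups did not overlap either, and it differed by 1.65 (adjusted p = 0.00141). Cdk1, the kinase that drives entry into mitosis, rose by 1.59, and Kif11, a spindle motor, rose by 1.57.

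Rrm2, the regulated subunit of the enzyme that makes deoxynucleotides, measured 27.1, 31.3, 30.9 and 22.8 TPM in hyperoxia and 8.74, 9.01, 8.94 and 6.12 TPM in room air. The room-air libraries were close together, with the lowest, library 2 of code B, standing apart, and no library overlapped. The difference was 1.66 ± 0.14 (SE), adjusted p = 0.000828. Tk1, which salvages thymidine for DNA synthesis, rose by 1.85, Gins2, part of the replicative helicase, by 1.49, and Mcm5, a subunit of its motor ring, by 1.47.

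Promoters of the mitosis genes are shown because many carry the cell-cycle homology region, a short element read by the complexes that time late cell-cycle transcription. The windows come from RefSeq (GRCm38.p6) and run from 250 bases before to 50 after a gene's start; 10528 of the tested genes had a window whose start lay within 100 bases of the start in the table. The letters TTTGAA, searched on both strands, were found in 19 of 25 mitosis windows (76%), in 2 of 19 DNA replication windows (10.5%) and in 11.6% of all 10528. CCAAT, a box bound by NF-Y, was found in 20 of 25 mitosis windows (80%), in 13 of 19 DNA replication windows (68.4%), in 12 of 16 windows of circadian clock genes (75%) and in 38.0% of all. Both Top2a and Cdk1 have a pair of TTTGAA matches, in capitals below, where TTCAAA is the same element on the other strand. The Top2a window lies at chr11:99024140-99024439 and the Cdk1 window at chr10:69352863-69353162, both on the minus strand and printed 5′ to 3′ along the gene.
Top2a: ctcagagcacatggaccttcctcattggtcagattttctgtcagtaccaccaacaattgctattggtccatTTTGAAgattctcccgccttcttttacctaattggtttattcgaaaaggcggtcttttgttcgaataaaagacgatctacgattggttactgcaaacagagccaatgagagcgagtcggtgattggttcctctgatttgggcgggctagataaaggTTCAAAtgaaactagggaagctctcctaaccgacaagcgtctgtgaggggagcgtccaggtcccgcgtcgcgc
Cdk1: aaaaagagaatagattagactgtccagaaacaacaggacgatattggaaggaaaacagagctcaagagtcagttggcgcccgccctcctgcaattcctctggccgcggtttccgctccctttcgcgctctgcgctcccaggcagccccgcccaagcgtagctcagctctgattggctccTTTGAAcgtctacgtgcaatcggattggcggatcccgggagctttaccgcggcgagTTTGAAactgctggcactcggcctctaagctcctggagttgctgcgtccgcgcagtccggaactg
A match says only that these letters lie in the window.

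The p53 pathway was uneven. Trp53, which encodes p53, measured 42.6, 44.7, 41.1 and 36.6 TPM in hyperoxia and 33.9, 43.1, 28.1 and 34.2 TPM in room air. The groups overlapped, and the difference of 0.25 did not pass (adjusted p = 0.0998), though it did without room-air library 3 of code A (0.33, adjusted p = 0.0325). Cdkn1a, the inhibitor of cyclin-dependent kinases known as p21 and the best known arrest gene of p53, measured 187.5, 196.2, 167.2 and 119.8 TPM in hyperoxia and 102.2, 100.9, 148.1 and 57.6 TPM in room air. Room-air library 1 of code B lay above the lowest hyperoxia library, and the difference of 0.76 ± 0.25 (SE) missed the threshold (adjusted p = 0.0524). It passed without room-air library 1 of code B (1.06, adjusted p = 0.00705), within code A alone (0.91, adjusted p = 0.0365), with a filter at 5 TPM (adjusted p = 0.0439) and in the fit of all 15 libraries (adjusted p = 0.0153). Mdm2, the ligase that degrades p53 and is itself a p53 target, averaged 50.8 ± 4.38 TPM in hyperoxia and 57.3 ± 10.2 TPM in room air (SD, n = 4 each), a difference of -0.16 (adjusted p = 0.363). Mdm2 differed by 0.12 within code A and by -0.44 within code B, where it was called (adjusted p = 0.0393).

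Of 50 p53 targets listed, 46 were tested. Of these, 15 rose and 5 fell, with a median of 0.264. The shares over all genes tested were 17.3% higher and 11.8% lower, so the falls among p53 targets lie near the general share. The falls numbered 3 without hyperoxia library 1 of code B. Psrc1, a spindle protein, measured 13.8, 16.1, 15.2 and 9.13 TPM in hyperoxia and 2.09, 1.88, 1.93 and 0.959 TPM in room air. It differed by 2.42 ± 0.18 (SE), adjusted p = 0.000828, and no library overlapped. Eda2r, a death-domain receptor of the TNF family, measured 6.82, 8.65, 8.91 and 5.36 TPM in hyperoxia and 0.891, 0.612, 1.00 and 0.780 TPM in room air, a difference of 2.19 (adjusted p = 0.000828). Every hyperoxia library thus stood above 5 TPM, while room air was near 1 TPM. Ckap2, a spindle-associated protein, rose by 2.12, Gtse1, which acts in mitosis and on p53 itself, by 1.64, and Zmat3, a zinc-finger RNA-binding protein, by 1.42. Psrc1, Ckap2 and Gtse1 are also genes of dividing cells, whose own lists rose, and how much of their rise goes with those lists was not tested.

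The 5 targets that fell were Fas, the death receptor (-0.75), Btg2, an antiproliferative gene (-0.78), the ephrin receptor Epha2 (-0.62), the stress sensor Sesn1 (-0.58) and the DNA-repair gene Ddb2 (-0.36); their naming follows from their values. Btg2 lost its call without hyperoxia library 1 or 2 of code B (adjusted p = 0.0615 and 0.0561), and Ddb2 without library 1 of code B (adjusted p = 0.0534). Bbc3, also called Puma, which triggers apoptosis, averaged 20.6 TPM in hyperoxia and 18.2 TPM in room air and was not called.

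**Figure D2:**
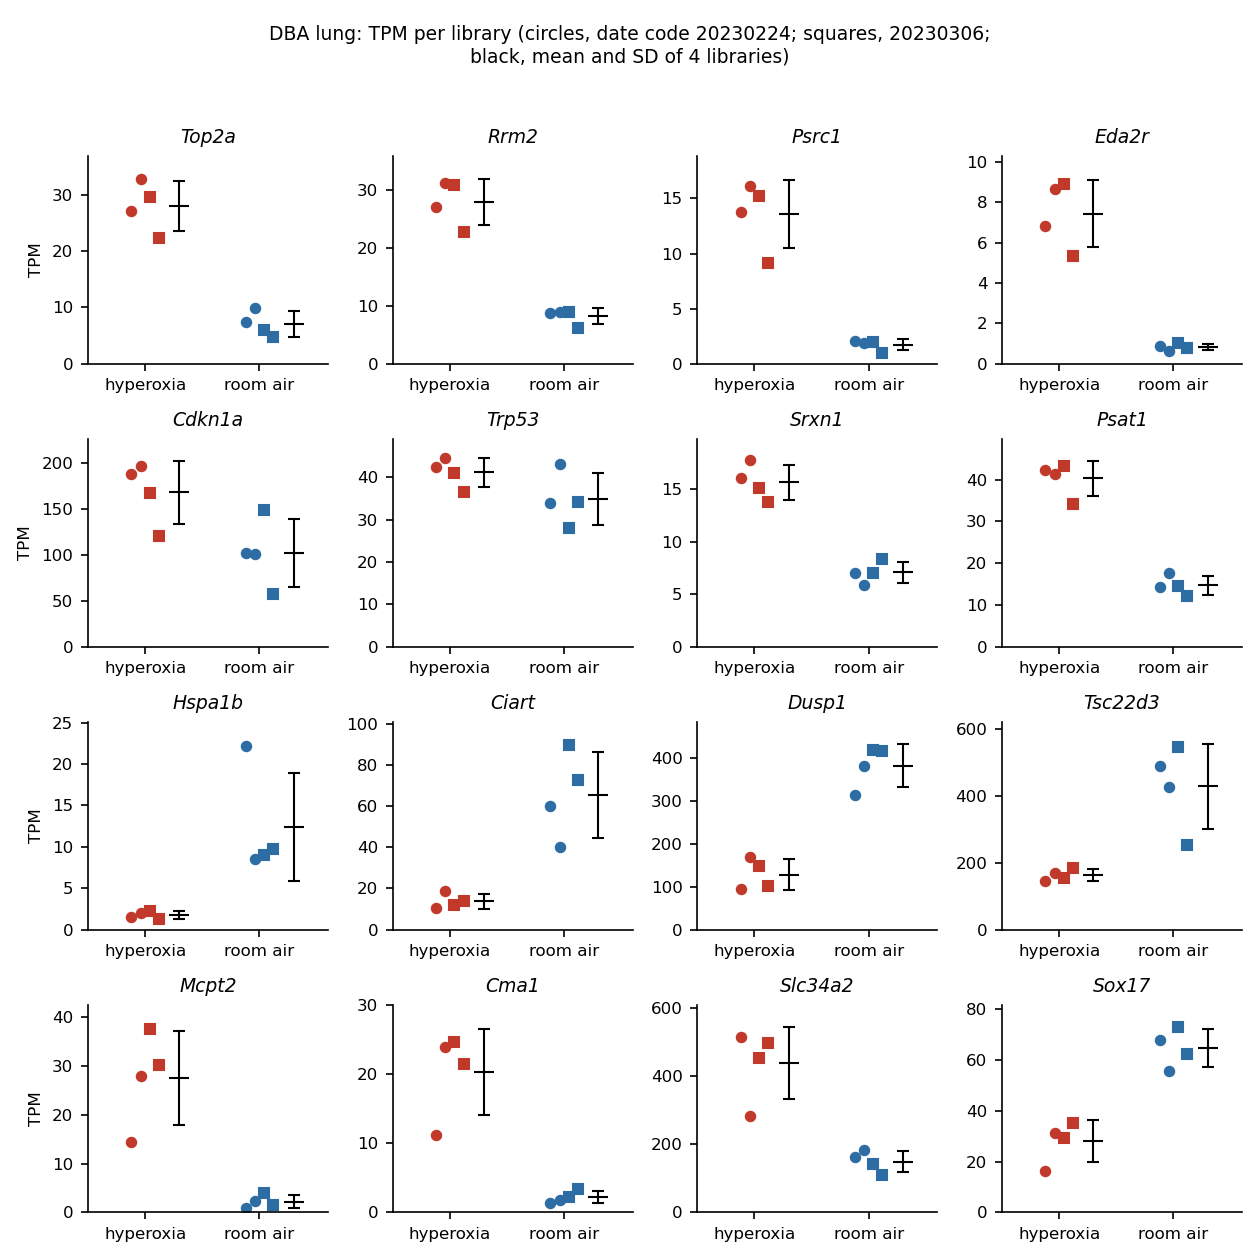
TPM of 16 genes in each DBA library (y axis, TPM), hyperoxia in red on the left and room air in blue on the right of each panel; circles are code A, squares code B, and black bars give the mean and SD of 4 libraries. The groups are apart in every panel but those of Cdkn1a and Trp53, where at least 1 room-air library reaches into the hyperoxia range.

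NRF2 targets and glutathione enzymes leaned one way. Of 33 tested, 16 rose, 0 fell and all 33 differences were above 0, with a median of 0.448; 17 missed the limma threshold. Leaving out 1 library gave 11 to 21 rises, and removing Scgb1a1 gave 13. The median was 0.839 within code A and 0.227 within code B. Akr1b8, an aldo-keto reductase, measured 35.1, 22.5, 21.1 and 24.4 TPM in hyperoxia and 7.71, 9.33, 7.42 and 12.9 TPM in room air. The groups did not overlap, and it differed by 1.37 (adjusted p = 0.00296). Srxn1, which restores overoxidised peroxiredoxins, measured 16.0, 17.7, 15.1 and 13.8 TPM in hyperoxia and 7.0, 5.86, 7.02 and 8.38 TPM in room air, a difference of 1.05 (adjusted p = 0.00191). All hyperoxia libraries lay above all room-air ones. Cbr3, a carbonyl reductase, rose by 1.06. Nqo1, the quinone reductase that is the usual reporter of NRF2, measured 18.9, 22.2, 16.4 and 16.6 TPM in hyperoxia and 5.24, 6.49, 9.49 and 17.1 TPM in room air. Room-air library 2 of code B was as high as hyperoxia, so the groups overlapped; the difference of 1.00 was called (adjusted p = 0.0266) but lost its call with no filter on low values (adjusted p = 0.0517) and in 5 of the 8 fits that left out 1 library (difference 0.82 to 0.97, adjusted p up to 0.0775), namely without either hyperoxia or either room-air library of code A or without room-air library 1 of code B.

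Among 16 enzymes that remove superoxide and peroxide, 7 rose and 2 fell. The rises numbered 4 without hyperoxia library 1 of code A, without either hyperoxia library of code B or without room-air library 1 of code B. Prdx5, a peroxiredoxin of mitochondria and peroxisomes, measured 116, 103, 120 and 119 TPM in hyperoxia and 75.2, 73.6, 49.8 and 56.0 TPM in room air. The lowest hyperoxia library was above the highest room-air one, and the difference was 0.86 (adjusted p = 0.00302). Cytosolic Sod1 rose by 0.57. Both that fell encode secreted enzymes: Sod3, the extracellular superoxide dismutase, by 0.50, and Gpx3, the plasma glutathione peroxidase, by 0.49. Sod3 lost its call without hyperoxia library 1 of either code (adjusted p = 0.0516 for code A and 0.0716 for code B) or without room-air library 2 of code A (0.0589), and Gpx3 without hyperoxia library 1 of code B (0.0503) and in the fit of all 15 libraries (0.0566).

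Genes of amino-acid supply under ATF4, the transcription factor of the integrated stress response, were higher in 8 of 29 cases and lower in 3. The median was 0.225, and 22 differences were above 0. Among all genes tested 17.3% were higher and 11.8% lower, so the lower count lies near the general share. The 3 lower genes were Ppp1r15a, Cebpb and Atf4 itself, named after their values were seen. Psat1, an enzyme of serine synthesis, measured 42.3, 41.4, 43.3 and 34.1 TPM in hyperoxia and 14.4, 17.7, 14.5 and 12.2 TPM in room air. The lowest hyperoxia library lay well above the highest room-air library. The difference was 1.40 ± 0.11 (SE), adjusted p = 0.000828.

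Of 18 heat shock chaperones tested, 8 fell and 0 rose, with a median of -0.287. The falls numbered 3 to 5 without any 1 of 6 libraries, lowest without hyperoxia library 1 of code B, and stayed at 7 or 8 only without room-air library 3 of code A or 2 of code B. Hspa1b, an inducible chaperone of the Hsp70 family, measured 1.46, 1.96, 2.25 and 1.30 TPM in hyperoxia and 22.2, 8.56, 8.95 and 9.78 TPM in room air. Room-air library 2 of code A stood far above the rest, and the lowest room-air value was still above all hyperoxia values. The difference was -2.19 ± 0.27 (SE), adjusted p = 0.00212. Hspa1a, its near-identical neighbour, whose reads cannot be separated with confidence, differed by -2.10, and Hsph1, a nucleotide exchange factor for these chaperones, by -1.63.

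The heat shock promoters are shown for their match to the element that heat shock factor 1 binds. GAANNTTC, searched on both strands, was found in 8 of 15 heat shock windows (53.3%) and in 5.51% of all 10528 windows. Hspa1b (chr17:34959189-34959488, minus strand) and Hsph1 (chr5:149636266-149636565, minus strand) each hold 1 match, in capitals.
Hspa1b: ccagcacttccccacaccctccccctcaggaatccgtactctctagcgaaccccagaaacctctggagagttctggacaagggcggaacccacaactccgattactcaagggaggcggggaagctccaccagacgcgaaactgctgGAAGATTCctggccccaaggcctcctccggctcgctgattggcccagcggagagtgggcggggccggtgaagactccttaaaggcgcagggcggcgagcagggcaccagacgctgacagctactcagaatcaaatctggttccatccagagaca
Hsph1: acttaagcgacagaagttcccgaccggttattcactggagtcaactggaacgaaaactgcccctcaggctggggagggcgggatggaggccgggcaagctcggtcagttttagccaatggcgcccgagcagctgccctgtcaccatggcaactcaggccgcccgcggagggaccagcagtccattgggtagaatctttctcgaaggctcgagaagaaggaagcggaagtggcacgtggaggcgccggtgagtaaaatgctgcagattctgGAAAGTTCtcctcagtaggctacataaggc

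Of 23 immediate early genes, which cells switch on within minutes of a stimulus, 10 fell and 1 rose (median -0.571). The falls numbered 6 without either hyperoxia library of code B. Some called genes stand on more than 1 list, so the counts of these lists are not independent. Among them are Dusp1 (immediate early and glucocorticoid lists), Btg2 (immediate early and p53 lists) and Per1 (glucocorticoid and clock lists). Nr4a3, an orphan nuclear receptor, differed by -2.0, with 0.475 to 1.57 TPM in hyperoxia and 5.89 to 7.83 TPM in room air. Dusp1, a phosphatase that switches off MAP kinases, measured 94.3, 169, 147 and 102 TPM in hyperoxia and 312, 381, 419 and 416 TPM in room air. The groups were far apart, with a difference of -1.60 (adjusted p = 0.00193). Klf2, a shear-responsive factor of endothelium, differed by -1.44. Ier3, a survival gene of the same class, was the 1 that rose (0.80) and is named for that value.

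Genes that glucocorticoids induce were mostly lower in hyperoxia. Of 24 tested, 13 fell and 2 rose, with a median of -0.593 and 11 to 15 falls with any 1 library left out. Tsc22d3, also called Gilz, an anti-inflammatory gene that is among the most direct readouts of the hormone, measured 145, 170, 153 and 185 TPM in hyperoxia and 488, 427, 545 and 252 TPM in room air. The lowest room-air library, 2 of code B, was still above all hyperoxia libraries, and the difference was -1.34 ± 0.22 (SE), adjusted p = 0.00428. Cebpd, a transcription factor of the acute phase, differed by -1.20. The 2 that rose were Arg2, an arginase, and Lcn2, an iron-binding protein of neutrophils and injured epithelium. Fkbp5, a chaperone of the glucocorticoid receptor, averaged 12.5 ± 6.22 TPM in hyperoxia and 12.9 ± 6.24 TPM in room air (SD, n = 4 each), a difference of -0.01 (adjusted p = 0.984; 0.37 without room-air library 1 of code B).

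Of 19 circadian clock genes tested, 5 fell, 0 rose and 14 were not called, against 11.8% lower over all genes tested. The median was -0.175, and 7 differences were above 0. The falls numbered 3 without hyperoxia library 1 of code B or room-air library 2 of code A. Without room-air library 2 of code B, 3 clock genes rose. Ciart, Per2, Per1 and Hlf were among those that fell and are named here for their values. Ciart, a repressor of the clock's activators, measured 10.4, 18.6, 11.9 and 13.7 TPM in hyperoxia and 60.0, 40.1, 89.7 and 72.9 TPM in room air. The lowest room-air library was more than double the highest hyperoxia one, and the difference was -2.16 ± 0.23 (SE), adjusted p = 0.00145. Per2, a repressor of the same loop, differed by -1.25 and Per1 by -0.59. Hlf, a clock-driven activator, differed by -0.57. Hlf lost its call without hyperoxia library 1 of code B, room-air library 2 of code A or hyperoxia library 2 of code A (adjusted p up to 0.0691). The labels give no hour at which lungs were taken, and its part in the levels of clock and glucocorticoid genes was not tested. The E-box CACGTG, the letters that clock activators bind, was found in 5 of 16 clock windows (31.2%) and in 10.0% of all windows. The Ciart window, at chr3:95882179-95882478 on the minus strand, holds it 3 times.
Ciart: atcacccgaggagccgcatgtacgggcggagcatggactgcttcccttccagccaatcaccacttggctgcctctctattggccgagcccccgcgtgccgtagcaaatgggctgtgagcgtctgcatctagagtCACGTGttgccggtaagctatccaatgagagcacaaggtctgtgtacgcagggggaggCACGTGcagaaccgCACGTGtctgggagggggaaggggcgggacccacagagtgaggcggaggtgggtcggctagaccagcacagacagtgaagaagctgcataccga

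Mast cell proteases were among the largest rises. Of 8 mast cell markers tested, 5 rose (Cma1, Mcpt4, Tpsb2, Tpsab1 and Cpa3) and 2 fell (Kit and Gata2), with a median of 1.55, and the 5 rises were called with each library left out. Cma1, the chymase of connective-tissue mast cells, measured 11.3, 24.0, 24.8 and 21.6 TPM in hyperoxia and 1.38, 1.80, 2.30 and 3.44 TPM in room air. Hyperoxia library 1 of code A was the lowest of its group and still more than 3 times the highest room-air library. The difference was 2.71 ± 0.22 (SE), adjusted p = 0.000828. Mcpt2, a protease of mucosal mast cells that was not on the list, measured 14.4, 27.9, 37.6 and 30.1 TPM in hyperoxia and 0.883, 2.36, 4.00 and 1.51 TPM in room air, a difference of 3.18 (adjusted p = 0.00118). Its groups did not overlap. Mcpt4, another chymase, differed by 2.20, the tryptases Tpsb2 and Tpsab1 by 2.19 and 1.75, and Cpa3, the mast cell carboxypeptidase, by 1.35. Mast cell proteases are close paralogs, and how reads shared between them were counted is not stated in the labels or headers. Kit, the stem cell factor receptor, averaged 36.2 TPM in hyperoxia and 80.1 TPM in room air (-1.10), and Gata2, a transcription factor, 67.3 TPM in hyperoxia and 115 TPM in room air (-0.76); lung endothelium expresses both.

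Of 14 neutrophil markers, 5 rose (Lcn2, S100a9, S100a8, Stfa1 and Retnlg) and 0 fell (1 without hyperoxia library 1 or room-air library 3 of code A), with a median of 0.938. S100a8, a subunit of calprotectin, measured 184, 45.2, 118 and 113 TPM in hyperoxia and 32.3, 40.2, 36.3 and 28.9 TPM in room air. Hyperoxia library 2 of code A was close to room air, and the other 3 were well above it. The difference was 1.56 (adjusted p = 0.014), and for S100a9 it was 1.68 with overlap of the groups (adjusted p = 0.0178). Lcn2 measured 339, 86.2, 106 and 141 TPM in hyperoxia and 39.5, 56.3, 36.6 and 16.7 TPM in room air, a difference of 2.05 (adjusted p = 0.0082). Stfa1 and Retnlg, a cystatin and a secreted factor of neutrophils, each differed by 1.54. The rises numbered 2 without hyperoxia library 1 of code B, room-air library 1 of code B or room-air library 2 of code A, and 10 without hyperoxia library 2 of code A. S100a9 lost its call without the first 3 of these (adjusted p up to 0.0582), Retnlg without these or hyperoxia library 2 of code B (up to 0.0701), and Stfa1 without these, hyperoxia library 1 of code A or room-air library 2 of code B (up to 0.0825) and with no filter on low values (0.0545).

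Ly6c2, a marker of inflammatory monocytes, measured 14.6, 9.17, 15.6 and 14.7 TPM in hyperoxia and 4.8, 3.86, 6.53 and 4.71 TPM in room air, a difference of 1.27 (adjusted p = 0.00215). All hyperoxia values were higher. Cx3cr1, the fractalkine receptor of monocytes and interstitial macrophages, rose by 1.24. Trem2, a lipid-sensing receptor of macrophages and the subject of a knockout elsewhere in the series, measured 4.75, 3.09, 2.67 and 5.57 TPM in hyperoxia and 1.43, 2.38, 1.20 and 4.28 TPM in room air. The groups overlapped, and the difference of 0.64 was not called (adjusted p = 0.143), but it was without room-air library 2 of code B (0.92, adjusted p = 0.0339). Of 24 interferon-stimulated genes, 7 fell and 2 rose (Ifit3 and Ifit2); 1 rose without hyperoxia library 1 of code B or room-air library 2 of code A. The falls numbered 3 without hyperoxia library 1 of code B and 4 without room-air library 2 of code A or either room-air library of code B. Rsad2, also called viperin, an antiviral enzyme, differed by -1.36, while Ifit3, which binds viral RNA complexes, differed by 1.04.

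Alveolar epithelial markers tended upward. Of 16 type 2 cell markers, 5 rose and 1 fell with Scgb1a1 removed or with quantile normalization (medians 0.696 and 0.513). As deposited, 7 rose and 1 fell, with a median of 0.759. The rises numbered 3 without hyperoxia library 2 or room-air library 1 of code B, 4 without hyperoxia library 1 of either code or room-air library 2 of code A, and 11 without hyperoxia library 2 of code A. Slc34a2, the phosphate transporter that clears surfactant phosphate, measured 513, 283, 453 and 497 TPM in hyperoxia and 162, 182, 142 and 111 TPM in room air. No room-air library reached the lowest hyperoxia library. The difference was 1.53 ± 0.22 (SE), adjusted p = 0.00276. Lpcat1, which makes the saturated lecithin of surfactant, rose by 1.10, and Etv5, a factor that maintains type 2 cells, by 1.07. Sftpc measured 14372, 10643, 17222 and 22603 TPM in hyperoxia and 10152, 9602, 7069 and 5084 TPM in room air; the groups did not overlap, and the difference of 1.02 missed the threshold (adjusted p = 0.0799), which it passed with a filter at 5 TPM (adjusted p = 0.0322) and in the fit of all 15 libraries (adjusted p = 0.0366). Nkx2-1, the master factor of lung epithelium, was the marker that fell, with 108 ± 12.8 TPM in hyperoxia and 161 ± 24.7 TPM in room air (SD, n = 4 each; -0.57, adjusted p = 0.0137); without hyperoxia library 1 of code B its adjusted p was 0.0513.

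Of 15 markers of type 1 cells, the thin cells of gas exchange, 7 rose and 1, Vegfa, fell. With Scgb1a1 removed or with quantile normalization, 5 rose and 1 fell. As deposited, the rises numbered 3 without either hyperoxia library of code B, room-air library 1 of code B or room-air library 2 of code A. They numbered 4 without hyperoxia library 2 of code A. Spock2, an extracellular proteoglycan, measured 128, 153, 131 and 101 TPM in hyperoxia and 39.4, 86.9, 34.5 and 40.6 TPM in room air. Room-air library 3 of code A stood above its group without reaching hyperoxia, and the difference was 1.42 (adjusted p = 0.00358). Cldn18, a tight-junction protein, rose by 0.70. Ager, the receptor RAGE that marks these cells, rose by 0.68 (adjusted p = 0.0172), but not with quantile normalization (0.46, adjusted p = 0.133) or no filter on low values (0.0576), nor without either hyperoxia library of code B, room-air library 1 of code B or room-air library 2 of code A (0.61 to 0.65, adjusted p up to 0.0642). Vegfa, the growth factor by which type 1 cells support capillaries, measured 301, 430, 353 and 359 TPM in hyperoxia and 552, 495, 494 and 561 TPM in room air, a difference of -0.55 (adjusted p = 0.0126). Its groups did not overlap.

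Capillary markers were mixed, with 7 of 23 lower, 2 higher (Kdr and Plvap) and 14 not called. Over all genes tested, 11.8% fell and 17.3% rose. The median of the list was -0.136, and 9 differences were above 0. Within code A the median was -0.215, and within code B it was -0.00343. The falls numbered 4 without hyperoxia library 1 of code B. The rises numbered 0 without either hyperoxia library or room-air library 1 of code B, 1 without hyperoxia or room-air library 2 of code A, and 4 without room-air library 3 of code A. Sox17, an endothelial transcription factor, measured 16.3, 31.4, 29.4 and 35.1 TPM in hyperoxia and 67.8, 55.6, 73.0 and 62.3 TPM in room air. All room-air values were above all hyperoxia values, with a difference of -1.22 ± 0.19 (SE), adjusted p = 0.00348. Ramp2, which makes the adrenomedullin receptor, differed by -0.73. Kdr, the main VEGF receptor, rose by 0.71 (adjusted p = 0.0354), but its groups overlapped; it missed the threshold with Scgb1a1 removed (adjusted p = 0.0526), with no filter on low values (0.0653) and without any 1 of 5 libraries (both hyperoxia libraries of code B, hyperoxia library 2 and room-air library 2 of code A, and room-air library 1 of code B; 0.52 to 0.74, adjusted p up to 0.105).

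In the mesenchyme, 4 of 18 alveolar fibroblast markers rose (Adh1, Meox2, Col13a1 and Plin2) and 4 fell (Slc7a10, Pdgfra, Fgf10 and Inmt); the rises numbered 2 without hyperoxia library 1 of code B, and the falls 2 without any 1 of 6 libraries, all but hyperoxia library 2 and room-air library 2 of code B. Adh1, an alcohol dehydrogenase of lipid-storing fibroblasts, measured 455, 285, 399 and 371 TPM in hyperoxia and 213, 187, 139 and 147 TPM in room air, a difference of 1.14 (adjusted p = 0.00302). Pdgfra, the receptor that septal myofibroblast precursors need, measured 32.6, 28.8, 35.6 and 42.0 TPM in hyperoxia and 58.4, 62.1, 57.9 and 53.2 TPM in room air, a difference of -0.73 (adjusted p = 0.00331). Neither gene's groups overlapped. Meox2, a mesenchymal homeobox factor, rose by 0.86.

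Of 10 mesothelium markers, 5 fell (Gpm6a, Aldh1a2, Lrrn4, Rspo1 and Bnc1) and 1, Krt19, rose (0.75); the falls numbered 0 without hyperoxia library 1 of code B, 1 to 3 without any 1 of the others but hyperoxia library 2 of code B, and 7 without that one. Gpm6a, a membrane glycoprotein, and Aldh1a2, the enzyme that makes retinoic acid, had overlapping groups and differed by -0.93 and -0.84. Gpm6a lost its call without hyperoxia library 1 of code B (adjusted p = 0.0557) and Aldh1a2 without any hyperoxia or room-air library of code A or hyperoxia library 1 of code B (adjusted p up to 0.073), and with no filter on low values (0.0539). Among 15 retinoid genes, 6 fell and 0 rose, with Crabp1, a cytosolic retinoic acid carrier, at 0.552, 1.62, 3.42 and 1.85 TPM in hyperoxia and 14.9, 17.9, 7.22 and 5.34 TPM in room air. Its groups did not overlap, and the difference was -2.06 (adjusted p = 0.00822). Without hyperoxia library 1 of code A, 3 retinoid genes rose, and without room-air library 3 of code A, 1 did.

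Elastic fibre genes rose in 8 of 19 cases and fell in 2, Efemp1 and Mfap2. The rises numbered 5 without either hyperoxia library of code B or room-air library 1 of code B, and the falls 1 without either hyperoxia library of code A, hyperoxia library 2 of code B, room-air library 2 of code A or room-air library 1 of code B. Eln, elastin itself, measured 3416, 2916, 2392 and 2171 TPM in hyperoxia and 3234, 2330, 1884 and 1613 TPM in room air, with overlapping groups and a difference of 0.29 that was not called (adjusted p = 0.233), although it was with quantile normalization (0.54, adjusted p = 0.0326). Emilin1, a glycoprotein at the elastin surface, measured 60.0, 54.0, 57.3 and 50.3 TPM in hyperoxia and 31.0, 46.8, 25.9 and 24.9 TPM in room air, a difference of 0.81 (adjusted p = 0.00618). Room-air library 3 of code A came closest to hyperoxia but did not reach it. Fbn1, the microfibril scaffold, rose by 0.76, and Efemp1, a fibulin, fell by 0.88. Of 20 collagen genes, 9 rose and 0 fell, with 4 rises without hyperoxia library 1 of code B or room-air library 2 of code A. Col12a1, a fibril-associated collagen, rose by 0.96 and Col4a3, a chain of the alveolar basement membrane, by 0.75, while the fibrillar Col3a1 was not called (-0.14, adjusted p = 0.486). Mmp2, a gelatinase, measured 229, 195, 229 and 181 TPM in hyperoxia and 116, 142, 80.9 and 90.1 TPM in room air, a difference of 0.98 (adjusted p = 0.00276). Its lowest hyperoxia library was above every room-air library. Slpi, an inhibitor of neutrophil elastase, rose by 1.28.

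Lipid synthesis genes rose or were not called. Of 21 sterol synthesis genes, 12 rose and 0 fell (8 with Scgb1a1 removed), and of 21 genes of fatty acid synthesis and lipid handling, 10 rose and 0 fell. The sterol count was 5 without hyperoxia library 1 of code B or room-air library 2 of code A, and 6 without room-air library 1 of code B; the fatty acid count was 6 without hyperoxia library 1 of either code, hyperoxia library 2 of code B or room-air library 1 of code B, and 1 of these genes fell without room-air library 2 of code B. Scd2, a fatty acid desaturase, measured 273, 268, 291 and 276 TPM in hyperoxia and 142, 186, 126 and 125 TPM in room air. Hyperoxia libraries differed little from each other and all exceeded room air, by 0.95 ± 0.12 (SE), adjusted p = 0.00215. Fabp5, a fatty acid carrier, rose by 0.94, and Fdps, which makes farnesyl pyrophosphate, by 0.68 with overlapping groups.

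Several of the largest changes lay outside the lists. Slc27a6, a fatty acid transporter, measured 61.2, 28.0, 47.2 and 35.0 TPM in hyperoxia and 12.5, 14.0, 4.77 and 6.97 TPM in room air, a difference of 2.10 (adjusted p = 0.00255). Adamdec1, a metalloproteinase of macrophages, measured 18.0, 12.5, 14.8 and 9.36 TPM in hyperoxia and 2.22, 3.10, 2.68 and 0.865 TPM in room air, a difference of 2.21 (adjusted p = 0.00145). Neither overlapped between groups. Apcdd1, an inhibitor of Wnt signalling, and Wnt7a, a Wnt ligand, rose by 1.30 and 1.27. Among falls, Tnfrsf25, a TNF-family receptor of T cells, measured 1.18, 3.11, 1.59 and 2.94 TPM in hyperoxia and 13.8, 10.8, 17.0 and 13.7 TPM in room air, a difference of -2.25 (adjusted p = 0.00135). Every hyperoxia library was below every room-air library. Dleu2, a long noncoding RNA, and Acrbp, an acrosin-binding protein, differed by -1.67 and -1.90 with no overlap.

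The table lists 353 microRNA hairpins that passed the filter, 36 to 138 bases long, of which 37 rose and 29 fell. Over all genes tested, 17.3% rose and 11.8% fell, which are larger shares than among these hairpins. Poly(A) libraries do not measure mature microRNAs, and reads of a hairpin row cannot be told apart from those of a longer transcript that covers it. Mir22 at chr11:75463716-75463810 measured 36.5, 41.1, 33.8 and 27.7 TPM in hyperoxia and 2.27, 10.9, 4.56 and 2.20 TPM in room air (2.79), and Mir5114 at chr19:44303171-44303231 differed by 2.07. Both are uncertain for that reason.

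One hyperoxia library stood apart for airway genes. In hyperoxia library 1 of code A Scgb3a1, a secretoglobin of large airways, was at 1019 TPM, against 0.398 to 10.6 TPM in the other 3 hyperoxia libraries, and Bpifb1, an antimicrobial protein of airway mucus, was at 659.5 TPM, against 0.279 to 9.59 TPM. The same library had the highest Lcn2 and Krt19. Over 16 secretory airway markers tested, 1 rose, Nupr1 (named for its value; 2 rose without hyperoxia library 2 of code A), and summed levels ran from 36754 to 56275 TPM in hyperoxia and from 33897 to 115477 TPM in room air. Of 20 ciliated cell markers, 0 were called in limma and 2 had an unadjusted p under 0.05; 4 fell without hyperoxia library 1 of code A, 1 fell without room-air library 3 of code A and 1 rose without room-air library 2 of code B. The median of the secretory markers was 0.862 within code A and -0.614 within code B, and that of the ciliated markers 0.474 and -1.24, so the 2 date codes went opposite ways. How much airway each lung sample held was not measured, and its part in these values was not tested.

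**Figure D3:**
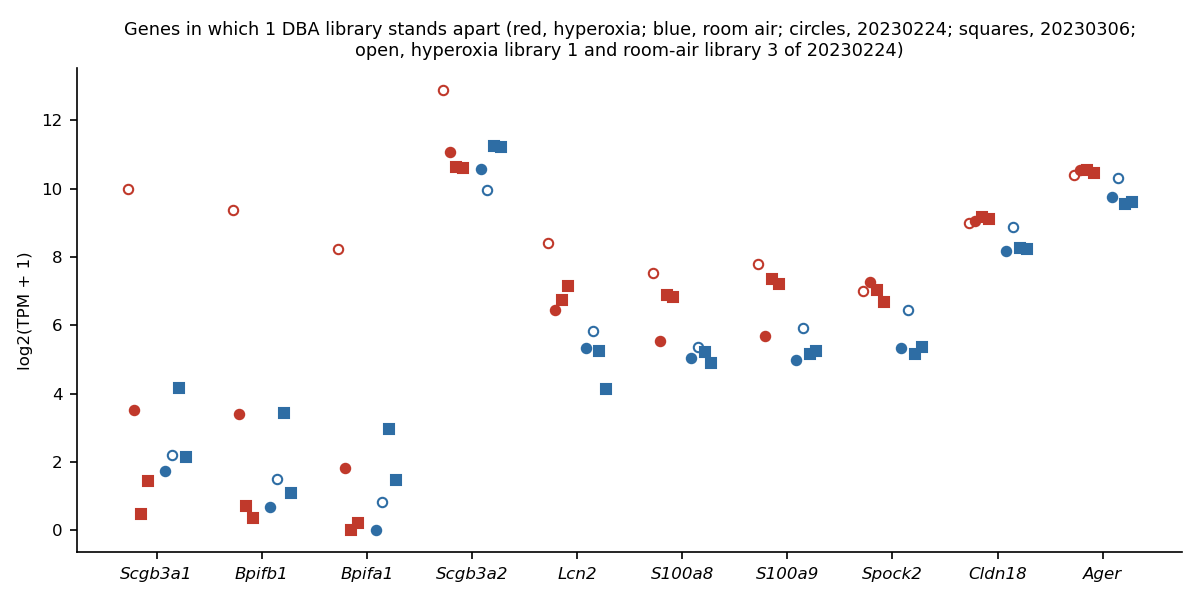
Log2(TPM + 1) of 10 genes in each DBA library (y axis), hyperoxia in red to the left and room air in blue to the right of each gene; circles are code A and squares code B. Open circles are hyperoxia library 1 and room-air library 3 of code A: the first is far above the rest for Scgb3a1 (1019 TPM) and Bpifb1 (659.5 TPM), and the second is the highest room-air library for Spock2 (86.9 TPM).

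Scgb1a1 alone took a large and variable part of each library. It held 7.10%, 7.28%, 5.55% and 5.67% of the listed TPM in hyperoxia and 8.75%, 5.35%, 15.6% and 18.1% in room air. The hyperoxia libraries were close together, while room air spread more than 3-fold, with library 3 of code A below every hyperoxia library. The means were 6.4 ± 0.916% in hyperoxia and 11.9 ± 5.91% in room air (SD, n = 4 each), and the difference of -5.54 percentage points was not significant (two-sided exact permutation test, p = 0.171, where 0.0286 is the smallest p that 4 against 4 allows); without room-air library 3 of code A it was -7.74 points (exact permutation p = 0.0286). Since a share taken by 1 transcript lowers every other value, the calls were recomputed with Scgb1a1 removed: 3736 of the 4256 were still called in the same direction, and the median difference over all genes was -0.00598, against 0.051 as deposited. Hemoglobin transcripts, which come from red cells and whose near-identical copies are summed here, amounted to 8776 ± 4457 TPM in hyperoxia and 21693 ± 11414 TPM in room air (SD, n = 4 each, exact permutation p = 0.0571). Hba-a1 and Hba-a2 were nearly equal in each library, as were Hbb-b1 and Hbb-bs. How reads shared between copies were counted is not stated, so the sum may count some reads more than once. Cardiac muscle transcripts amounted to 325 ± 189 TPM in hyperoxia and 326 ± 253 TPM in room air (exact permutation p = 1).

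**Figure D4:**
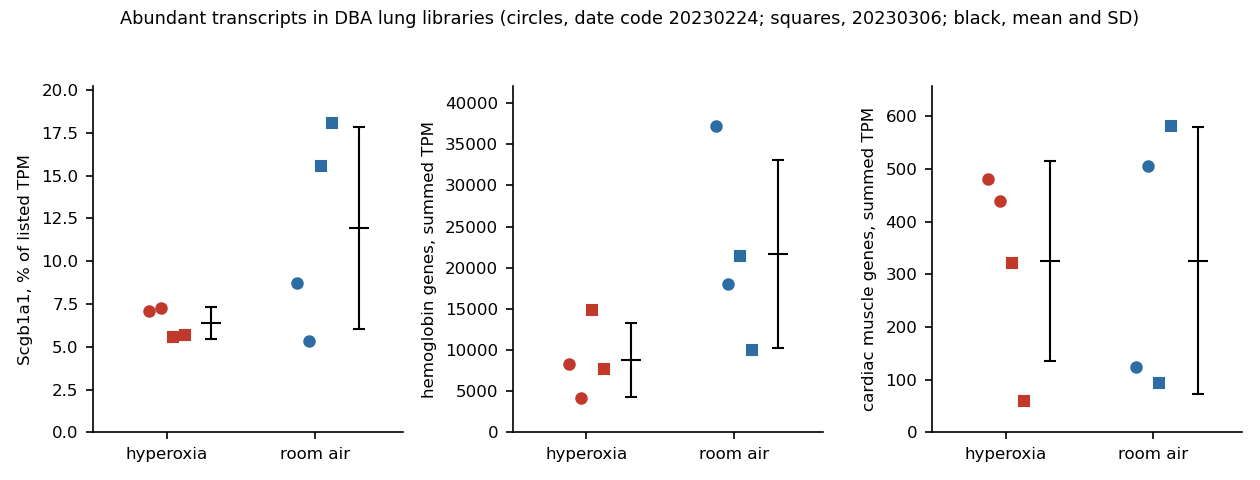
Scgb1a1 as a percentage of the listed TPM, summed TPM of hemoglobin genes and summed TPM of cardiac muscle genes (y axes) in each DBA library, hyperoxia left and room air right; circles are code A, squares code B, black bars the mean and SD of 4 libraries. All hyperoxia libraries lie between 5.55% and 7.28% Scgb1a1, while both room-air libraries of code B exceed 15%.

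The oxygen response of DBA lung was then set against that of B6 lung by the difference of the 2 differences, over all 15 libraries with date codes as terms. Of 15623 genes tested, 4145 (26.5%) differed, 2976 (19.0%) with a higher and 1169 (7.48%) with a lower response in DBA. The median over all genes was 0.141, and 0.0958 with Scgb1a1 removed, so that differences are best read against that shift; the share of higher calls was 71.8% as deposited, 66.9% with Scgb1a1 removed and 53.1% with quantile normalization. No date code holds both strains, so strain and date code cannot be told apart in this contrast. All B6 hyperoxia libraries share a date code with B6 room-air libraries that are male. The other B6 date code holds room-air libraries alone, all female, so its term absorbs them. The estimated B6 response thus rests on hyperoxia and the male room-air libraries only. Without date codes in the fit, 4563 genes were called. Some B6 libraries are female, and with male libraries only, a setting chosen after seeing the data, 3207 genes were called.

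Of 25 glucocorticoid-responsive genes, 22 had a lower response in DBA and 0 a higher one, with a median of -2.23. Zbtb16, a transcription factor, averaged 13.1 ± 8.31 TPM in hyperoxia and 22.3 ± 10.8 TPM in room air in DBA lung (SD, n = 4 each); in B6 lung it averaged 85.1 ± 8.93 TPM in 3 hyperoxia and 6.99 ± 4.64 TPM in 4 room-air libraries. The responses differed by -5.06 ± 0.70 (SE), adjusted p = 0.000579. Here and below, B6 room-air means cover all 4 libraries. The estimated difference of responses draws only on those that share a date code with B6 hyperoxia, so means and estimates need not match. Fkbp5, not called in DBA lung, averaged 74.0 ± 14.7 TPM in hyperoxia and 5.92 ± 1.04 TPM in room air in B6 lung, a difference of responses of -3.55 (adjusted p = 0.000676). Klf15, a metabolic factor, averaged 22.5 ± 2.22 TPM in hyperoxia and 45.4 ± 14.4 TPM in room air in DBA lung, against 55.6 ± 1.28 and 11.8 ± 5.34 TPM in hyperoxia and room air in B6 lung (-3.66, adjusted p = 4.47e-05). Levels thus moved in opposite directions in the 2 strains. Pdk4, which restrains glucose oxidation, Fam107a, an actin-associated stress protein, Cebpd and Tsc22d3 differed by -3.80, -3.60, -2.95 and -2.75.

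Among 48 p53 targets, 13 had a lower response in DBA and 5 a higher one. Cdkn1a averaged 168 ± 34.2 TPM in hyperoxia and 102 ± 37.0 TPM in room air in DBA lung, against 372 ± 50.9 TPM in hyperoxia and 25.7 ± 3.05 TPM in room air in B6 lung. The responses differed by -3.17 ± 0.35 (SE), adjusted p = 0.00027, and room-air DBA libraries were all above the B6 room-air mean. Mdm2 differed by -0.87 (adjusted p = 0.00382) and Trp53 by 1.01 (adjusted p = 0.00235). Psrc1 and Eda2r did not differ detectably between strains (0.14, adjusted p = 0.782, and -0.38, adjusted p = 0.338).

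Cell-cycle genes differed the other way, with 26 of 30 DNA replication genes and 22 of 30 mitosis genes higher and 0 lower in response. Top2a averaged 27.9 ± 4.43 TPM in hyperoxia and 7.05 ± 2.23 TPM in room air in DBA lung, against 32.9 ± 3.23 and 32.2 ± 3.80 TPM in hyperoxia and room air in B6 lung. The hyperoxia levels were close between strains and the room-air levels were not, and the responses differed by 1.84 ± 0.23 (SE), adjusted p = 0.000334. Mcm5 differed by 1.91. Of 18 alveolar fibroblast markers, 11 had a higher response in DBA and 0 a lower one: Meox2 averaged 35.6 ± 5.12 TPM in hyperoxia and 19.0 ± 1.39 TPM in room air in DBA lung, against 15 ± 3.82 and 52.4 ± 10.8 TPM in hyperoxia and room air in B6 lung (2.84, adjusted p = 2.66e-05). Slc27a6 differed by 3.63, Ndnf, a secreted factor of mesenchyme, by 3.2, Wnt7a by 2.48, Emilin1 by 1.92 and Etv5 by 1.90. Of the 4256 genes called in DBA, 1708 differed from B6, and for 1314 of these the B6 difference had the opposite sign, of which 421 were called in B6. Selecting genes for a DBA call and for a difference from B6 itself favours opposite signs, so these counts are a description.

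**Figure D5:**
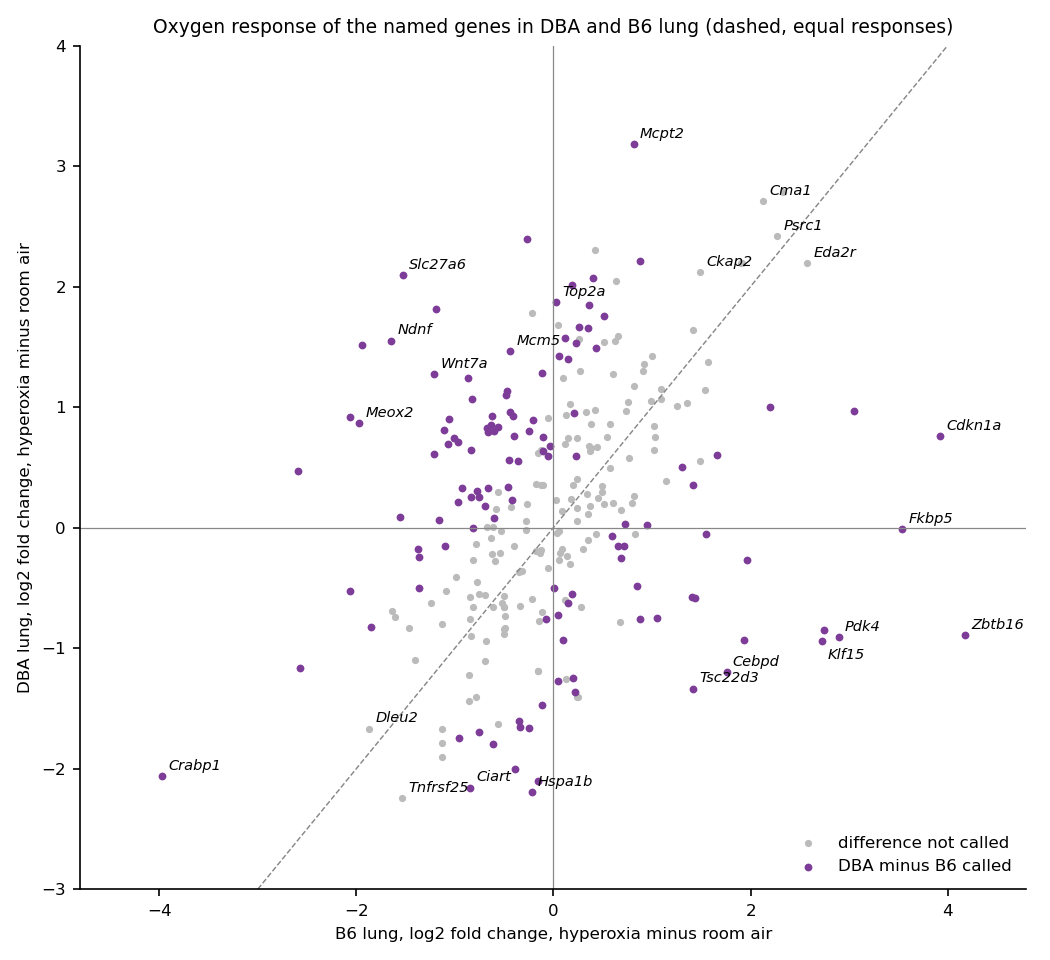
Log2 fold change, hyperoxia minus room air, of the genes that the naming rule gives, in DBA lung (y axis) and B6 lung (x axis); purple points differ between strains at an adjusted p below 0.05, and the dashed line marks equal responses. Cdkn1a, Fkbp5, Zbtb16, Klf15 and Pdk4 lie far to the right of the line, and Slc27a6, Ndnf, Wnt7a and Meox2 lie to its left.

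Binding of p53 was profiled by ChIP-seq in DBA lung with 2 samples per exposure, from which the authors called 1 pooled peak list each, so that replicates could not be compared. The hyperoxia list held 165 peaks from 11134030 tags and the room-air list 255 peaks from 3992220 tags. Each peak's score, the authors' tag count scaled to a common depth, ran from 8 to 31 in hyperoxia and from 15 to 93 in room air; the lists differ in depth and in their lowest score, so numbers of peaks are not compared. Only 2 peaks overlapped between the lists by at least 1 base (1.21% of the hyperoxia list, 0.784% of the room-air list): chr16:98107473-98107585, scored 23 in hyperoxia and 45 in room air, and chr10:103237467-103237667, scored 18 and 43. They are named because they are the pair that overlapped, and neither lies within 1 kb of a start site. Within 10 kb of a start site of the 50 p53 targets, the hyperoxia list had a peak at 2, Zmat3 (chr3:32364158-32364358, 1407 bases downstream of the start, score 14) and Bbc3 (chr7:16308510-16308710, at -973 bases relative to the start, upstream of it, score 13), and the room-air list had none. The B6 hyperoxia list, from 33025026 tags, had a peak within 10 kb at 16 of the 50 and the B6 room-air list, from 30356902 tags, at 2; depths differed, so these counts stand side by side without a comparison.

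A pair of promoter windows shows letters matching a p53 site, which is a pair of half-sites with a short spacer. A DBA hyperoxia peak with the highest score of its list (chr1:155056118-155056318, score 31, shared with a peak at chr7:46601994-46602194) ends inside the window of Gm51651, a predicted gene (chr1:155056274-155056573, plus strand), and a p53 match stands in capitals at bases 155056324 to 155056343, just beyond the peak's end. The window upstream of Cdkn1a (chr17:29090729-29091028, plus strand), which lies before the start of the Cdkn1a transcript in the table, holds a match at 29090906 to 29090937. A B6 hyperoxia peak lies there (chr17:29090822-29091022, score 40), and neither DBA list has one. Both DBA lists came from fewer tags, so a missing peak there is not read as missing binding.
Gm51651: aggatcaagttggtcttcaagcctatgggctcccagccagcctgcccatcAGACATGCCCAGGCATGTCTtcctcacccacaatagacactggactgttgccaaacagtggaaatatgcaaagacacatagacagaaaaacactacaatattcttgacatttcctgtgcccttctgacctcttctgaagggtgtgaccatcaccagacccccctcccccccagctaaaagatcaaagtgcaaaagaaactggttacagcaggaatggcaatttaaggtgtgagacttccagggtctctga
Cdkn1a upstream: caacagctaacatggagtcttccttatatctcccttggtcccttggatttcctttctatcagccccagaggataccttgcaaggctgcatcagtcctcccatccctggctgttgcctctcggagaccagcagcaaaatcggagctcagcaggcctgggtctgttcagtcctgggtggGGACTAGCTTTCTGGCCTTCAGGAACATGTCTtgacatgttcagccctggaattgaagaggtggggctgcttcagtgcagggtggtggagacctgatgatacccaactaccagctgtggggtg
Of the 10528 windows of tested genes, 2 held such a pair, and none of the 35 windows of p53 targets did. No match says only that these letters are not in the 300 bases searched.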

How the data were processed

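RNA was sequenced from whole lung. The authors deposited expression as TPM per transcript for 15 lung libraries. The submitters' processing notes name STAR, Bowtie2, HOMER and the build mm10, without versions or roles. Each column name gives a strain and an exposure, by which it was placed in a group of the labels but not tied to 1 replicate, and 0 sample columns were left unused. Library depth was estimated from the steps between low TPM values: at least 99.89% of low values in each DBA library came out as whole reads within 0.15.

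From these values log2(TPM + 1) was taken, genes with at least 1 TPM in 4 of 8 DBA libraries (3 of 15 for the strain contrast) were kept, and limma 3.58.1 in R 4.3.3 was fitted with exposure and date code as terms. p-values were adjusted by Benjamini-Hochberg over all genes tested, with calls below 0.05. Scripts were tested on simulated data. TPM are shares, so 1 abundant transcript moves all others. Alternatives were other filters, pseudocounts, scalings and fits, each date code alone, and each library left out. Shares and sums were compared with exact permutation tests (SciPy 1.17.1, Python 3.11.15), which cover the spread between libraries.

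For p53 ChIP-seq, the authors' HOMER peak score is a normalized tag count of pooled samples after filtering against input, per the file headers. Peaks were matched by at least 1 shared base.

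The libraries and 47 gene lists were chosen with earlier results of these data known. Named genes are Trem2, Trp53, Cdkn1a, Mdm2 and Scgb1a1, the 15 largest rises and falls with at least 5 TPM and no overlap, up to 4 called and 2 uncalled members of each list, and the 6 largest differences from B6 each way; from these the text takes those that show a list best, and any other gene is said to be named after its value. A few items are not reported here.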

Additional observations from a re-analysis of the deposited data

Results flagged for a closer look

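Among 119 genes whose values are given, 238 groups of 4 libraries were examined, and in 18 of them 1 library lay apart from the other 3 (gap over range above Dixon's critical value for 4 samples; chance flags about 1 group in 20). Hyperoxia library 1 of code A was the one apart for Scgb3a1 (1019 TPM), Bpifb1 (659.5 TPM), Bpifa1 (299.9 TPM, against 0 to 2.51 TPM in the others), Scgb3a2 (7547 TPM, against 1554 to 2151 TPM), Krt19 (180.2 TPM) and Fam107a (7.50 TPM). Room-air library 3 of code A stood above its group for Spock2 (86.88 TPM), Cldn18 (468.4 TPM), Col4a3 (68.2 TPM), Slpi (7.09 TPM) and the neutrophil gene Retnlg (5.94 TPM). Room-air library 2 of code A did so for the chaperones Hspa1b (22.2 TPM) and Hspa1a (20.72 TPM). Room-air library 1 of code B was the highest of its group for Scgb3a1 (16.95 TPM) and Bpifb1 (9.84 TPM). Lower than their groups were hyperoxia library 2 of code B for Gtse1 (3.88 TPM), hyperoxia library 2 of code A for Ly6c2 (9.17 TPM) and room-air library 2 of code B for Rrm2 (6.12 TPM). Their cause was not tested.

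The oxygen response differed from that of B6 lung for 64 of the 119 genes, as the test of the difference between responses in limma found. All values that follow are log2 differences of DBA minus B6 responses, and strain and date code cannot be told apart in them. Lower responses in DBA were found for the p53 targets Cdkn1a (-3.17), Sesn1 (-1.98), Fas (-1.79), Mdm2 (-0.87) and Epha2 (-0.77), while Trp53 was higher (1.01). Genes that glucocorticoids induce were lower: Zbtb16 (-5.06), Pdk4 (-3.80), Klf15 (-3.66), Fam107a (-3.60), Fkbp5 (-3.55), Cebpd (-2.95), Hif3a (-2.87) and Tsc22d3 (-2.75). Lower responses were also seen for the chaperones Hspa1b (-1.97) and Hspa1a (-1.94), for the clock genes Per1 (-2.03), Per2 (-1.44) and Ciart (-1.31), and for the early genes Nr4a3 (-1.61) and Dusp1 (-1.26). The antioxidant genes Gpx3 (-1.34) and Nqo1 (-1.20), the antiviral gene Rsad2 (-1.58), the factor Gata2 (-1.63), the mesothelial gene Gpm6a (-1.03), the endothelial gene Ramp2 (-0.77) and Ndrg1 (-0.74) completed the lower responses.

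Higher responses in DBA were found for the division and replication genes Mcm5 (1.91), Top2a (1.84), Tk1 (1.49), Kif11 (1.45), Rrm2 (1.40), Aurkb (1.30) and Gins2 (1.06). Epithelial markers were higher too: Etv5 (1.90), Lpcat1 (1.58), Spock2 (1.37), Slc34a2 (1.30) and Ager (0.71). In stroma and vessels this held for Ndnf (3.2), Meox2 (2.84), Emilin1 (1.92), Crabp1 (1.91), Kdr (1.68), Adh1 (1.61), Col12a1 (1.40), Fbn1 (1.16) and Col4a3 (0.87). Immune and mast cell genes with higher responses were Mcpt2 (2.37), Cx3cr1 (2.11), Adamdec1 (1.33) and Tpsab1 (1.24). The early gene Ier3 (1.05) also had a higher response, opposite to Nr4a3 and Dusp1. The Wnt ligands Wnt7a (2.48) and Wnt3a (1.96), the lipid genes Slc27a6 (3.63), Fabp5 (0.81) and Scd2 (0.75), the enzymes Psat1 (1.25), Sod3 (0.86) and Pkm (0.37), the inhibitor Slpi (1.40) and the hairpin row Mir5114 (1.67) were higher as well.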

How the results depend on the processing

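The DBA comparison had 4256 calls. Other settings gave 5181 (all 15 libraries in the fit), 3777 (no filter), 3852 (filter at 5 TPM), 4205 and 4274 (pseudocount 0.1 and 5 TPM), 4094 (no date code), 4275 (median of ratios), 4064 (Scgb1a1 removed), 4301 (quantile normalization), 4279 (20 most abundant transcripts removed) and 4115 (code B alone). Code A alone gave 268 calls, a minimum change of 1 on the log2 scale gave 413 by its construction, and leaving out 1 library gave 2130 to 4550; the cause of the first and last was not tested. The difference from B6 had 4145 calls and 3010 to 4683 under its alternatives, among them 3207 with male libraries only, a setting chosen after seeing the data. Within code B, Bpifa1 differed by -2.12 and Scgb3a2 by -0.603, against positive differences over all libraries; the cause was not tested. The Scgb1a1 share differed by -7.74 to -3.5 percentage points with 1 library left out. Of 102 called genes given with values, 96 kept their call under every setting other than single date codes and left-out libraries, and 88 kept it with each library left out. With the score at least 2 times the lowest, 7 hyperoxia and 10 room-air peaks remained, and 0 lay within 10 kb of a p53 target in hyperoxia. Within 1 kb of a start site lay 4 hyperoxia and 13 room-air peaks, with 1 p53 target in hyperoxia, and within 50 kb lay 115 and 153, with 1 p53 target in room air. No paired analysis was possible because the numbers restart within each date code and differ between the exposures. All DBA libraries are male, so sex could not enter their fit. Estimated depth of 12550000 to 38760000 reads limits the genes near 1 TPM.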

Other observations

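Genes of lipid-handling macrophages, a state in which macrophages take up and store lipid, rose in 9 of 21 cases and fell in 1, with a median of 0.396; the fall was Syk, a signalling kinase, named for its value. Lgals3, which encodes galectin 3, measured 96.6, 56.5, 57.5 and 80.3 TPM in hyperoxia and 28.3, 41.9, 37.3 and 29.9 TPM in room air. Its groups did not overlap, and the difference was 1.04 (adjusted p = 0.00677). Apoe, the lysosomal proteases Ctsb, Ctsd and Ctsl, and Plin2, which coats lipid droplets, were among the others that rose. The rises numbered 5 without hyperoxia library 1 of either code, hyperoxia library 2 of code B or room-air library 1 of code B, and the fall of Syk was called only with all libraries or without hyperoxia library 2 of code B. Alveolar type 2 cells also express several of these genes, and their part was not tested.

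Of 22 Wnt ligands and response genes, 8 rose and 3 fell, the 3 falls being Lef1, Wif1 and Rspo1, named for their values. Wnt3a, a ligand of the canonical pathway, measured 12.2, 13, 14.4 and 11.6 TPM in hyperoxia and 5.43, 9.31, 4.68 and 6.72 TPM in room air. No room-air library reached hyperoxia, and the difference was 0.90 (adjusted p = 0.00804). The rises numbered 4 without hyperoxia library 1 of either code or room-air library 2 of code A, and 5 without room-air library 1 of code B; the falls numbered 1 without hyperoxia library 1 of either code or room-air library 2 of code B.

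Of 27 glycolysis and hypoxia genes, 5 rose, 4 fell and 18 were not called, with a median of 0.161. Over all genes tested, 17.3% rose and 11.8% fell, so these counts lie near the general share. The called genes are again named for their values. Those that rose encode glycolytic enzymes (Pkm, Eno1, Tpi1, Pgk1 and Ldha), and those that fell were Hif3a, Ndrg1, Vegfa and Pfkfb3. Pkm, pyruvate kinase, measured 187.3, 176, 165.1 and 152.1 TPM in hyperoxia and 116.7, 130.6, 95.6 and 107.6 TPM in room air, a difference of 0.60 (adjusted p = 0.00251). Hif3a, a hypoxia-inducible factor subunit that glucocorticoids also induce, differed by -0.93, and Ndrg1, a hypoxia-induced gene, by -0.55. The rises numbered 3 without hyperoxia library 1 of code B.

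Between strains, 8 peaks overlapped between the hyperoxia p53 lists of DBA and B6 lung, 4.85% of the DBA list and 3.40% of the B6 list.

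Further lists follow, with called members named for their values. Over all genes tested, 29.1% were called, 17.3% higher and 11.8% lower. Of 19 genes linked to senescence, many of them secreted, 6 rose and 2 fell, Areg and Plaur. Those that rose were Gdf15, Igfbp4, Igfbp7, Timp1, Cdkn2b and Lmnb1, of which Cdkn2b and Lmnb1 encode proteins inside the cell. The rises numbered 3 without hyperoxia library 1 of code B or room-air library 2 of code A. Of 24 proteinases and inhibitors, 9 rose, among them Mmp14, Timp2 and Timp3, and Mmp28 and Adamts1 fell (6 rises and 0 falls without hyperoxia library 1 of code B or room-air library 2 of code A, and 0 falls without room-air library 3 of code A). Of 13 markers of transitional epithelium, 5 rose (Krt18, Krt19, Krt7, Lgals3 and Itgb6) and 3 fell (Areg, Ndrg1 and Plaur). Of 21 interstitial macrophage and monocyte markers, 5 rose (C1qa, Cx3cr1, Ly6c2, Ms4a7 and Apoe) and 3 fell (Maf, Stab1 and Ace), with 2 rises without either library of hyperoxia or library 1 of room air in code B. Of 31 genes of the TGF-beta and BMP family, 5 rose (Tgfb2, Tgfbr2, Bmpr1a, Ltbp2 and Id2) and 2 fell (Bmp6 and Inhbb), with 4 falls without room-air library 3 of code A and 1 without hyperoxia library 1 of code B. Of 17 markers of larger vessels and lymphatics, 3 rose (Ackr3, Lyve1 and Pdpn, 1 without either hyperoxia library of code B) and 4 fell (Efnb2, Hey1, Mmrn1 and Ccl21a). Of 27 cytokine and chemokine genes, 3 rose (Ccl6, Csf2 and Lif) and 1, Cxcl12, fell, with 0 rises without room-air library 1 of code B or 2 of code A and 1 without hyperoxia library 1 of code B. Of 12 pericyte markers, Rgs5 and Postn rose and Pdgfrb and Kcnk3 fell. Complement genes (C1qa and Masp1 higher, C2 and Cfp lower, of 19) and smooth muscle markers (Tgfbi higher, Mustn1 and P2rx1 lower, of 19) had calls that changed with nearly every library left out. Of 16 alveolar macrophage markers only Krt19, an epithelial keratin too, rose, and of 17 dendritic cell and MHC class II genes only Cd209a fell. Of 11 T and NK cell markers, 18 cardiac, 3 skeletal muscle and 2 neuroendocrine genes tested, 0 were called in limma (unadjusted p under 0.05 for 2 T and NK cell markers, 1 cardiac gene and 0 of the rest), and no basal cell marker passed the filter.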
